A study of Mus musculus with 20 samples.

Results

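Gamma-secretase is a membrane complex with 4 kinds of subunit, and 6 of the mouse genes that encode them were followed here in whole brain: *Psen2*, *Ncstn*, *Psenen*, *Aph1a*, *Aph1b* and *Aph1c*. They were taken by name as a gene list that was selected on the P21 values, because *Aph1c* was higher in every Katnal2-KO mouse than in every wild-type (WT) mouse at postnatal day (P) 21. The comparison of KO with WT mice at P21 is therefore described below without a test for these 6 genes. The same holds for the differences of *Aph1c* between ages. For the other members, P21 mice do enter the tests between ages and the correlations. All 6 were among the 19463 genes of the table, and all 6 had a mean of at least 10 over the 20 mice, as 17637 genes did.

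The study asked how the loss of *Katnal2*, a gene related to the microtubule-severing katanins, changes the brain at a young and an adult age. RNA was taken from the brains of male C57BL/6J mice that were Katnal2 knock-out (KO) or WT, at 3 weeks (P21) or 10 weeks (P70), and each of the 4 groups had 5 mice. The KO allele came from EUCOMM embryonic stem cells (Katnal2tm1a(EUCOMM)Wtsi), bred with Protamine-Flp mice to a floxed allele and then recombined in early embryos with a cell-permeable Cre (HTNC), so that the deletion of exon 3 is present throughout the animal, and the line was backcrossed to C57BL/6J. Whole brain mixes all of its cell types, so fewer cells of a type and less RNA per cell cannot be told apart.

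Gamma-secretase cuts proteins inside the membrane after another protease, a sheddase, has removed most of their outer part. A presenilin, such as the product of *Psen2*, carries the catalytic aspartates. Nicastrin (*Ncstn*) has a large outer domain that helps to admit substrates, Pen-2 (*Psenen*) is needed for the presenilin to be cut into its active form, and Aph-1 is the scaffold on which the complex assembles. Each complex holds a single Aph-1 protein. Rodents have an additional *Aph1* gene, *Aph1c*, next to *Aph1b*. Notch receptors are among the best known substrates, and their released inner parts enter the nucleus and switch on target genes with the DNA-binding protein RBPJ.

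In GRCm38 with the GENCODE M21 annotation, *Aph1b* (ENSMUSG00000032375) lay on the minus strand at chr9:66775202-66795490 and *Aph1c* (ENSMUSG00000053040) on the same strand at chr9:66814994-66834726, with 19503 bases between them. *Aph1a* (ENSMUSG00000015750) was at chr3:95893969-95898288 on the plus strand. The other members were on the minus strand, *Psen2* (ENSMUSG00000010609) at chr1:180227004-180263438, *Ncstn* (ENSMUSG00000003458) at chr1:172066013-172082795 and *Psenen* (ENSMUSG00000036835) at chr7:30561863-30563627. *Aph1b* and *Aph1c* are near-identical copies in their coding part. The coding sequences of the transcripts Aph1b-201 (771 bases) and Aph1c-202 (774 bases), which have 6 exons each, were 95.9% identical in an alignment with 29 mismatched bases, and their longest identical run was 341 bases. After the coding sequence the same transcripts were 61.3% identical. The first 120 coding bases are shown because they hold 14 of the differences by which a read can be given to either gene. They are spliced from exons 1 and 2, within chr9:66794234-66795365 for *Aph1b* and chr9:66833323-66834598 for *Aph1c*, are written 5′ to 3′ on the minus strand, and have the bases that differ in capitals.
Aph1b: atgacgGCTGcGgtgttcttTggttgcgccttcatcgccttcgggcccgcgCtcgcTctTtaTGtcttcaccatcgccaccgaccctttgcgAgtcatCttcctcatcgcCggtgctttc
Aph1c: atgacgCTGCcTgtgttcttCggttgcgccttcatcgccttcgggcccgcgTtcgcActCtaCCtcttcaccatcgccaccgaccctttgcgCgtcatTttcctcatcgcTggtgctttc

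Of all runs of 31 bases in the transcripts of a gene, 24.7% of those of *Aph1b* also occurred in *Aph1c* and 24.6% of those of *Aph1c* in *Aph1b*. For *Aph1a* 21.9% were shared with the processed pseudogene Gm15429, and for *Psenen* 20.4% with the processed pseudogene Gm12396. The shares were 2.49% for *Ncstn* and 0.113% for *Psen2*, over all other genes. Reads from stretches shared by *Aph1b* and *Aph1c* were divided between them by the authors' transcript estimation. Their levels carry that uncertainty, and the sum of *Aph1b* and *Aph1c* is given beside both. The pseudogenes Gm15429 and Gm12396 were not among the genes of the values. How the estimation treated reads that *Aph1a* and *Psenen* share with them is not known, and the levels of *Aph1a* and *Psenen* carry that uncertainty.

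The start regions of the neighbours are far less alike than their coding parts, and are shown for that reason. The 300-base windows from RefSeq (GRCm38.p6), 250 bases before to 50 after the start, were 49.5% identical in an alignment. They are written 5′ to 3′ on the minus strand, chr9:66795374-66795673 for *Aph1b* and chr9:66834657-66834956 for *Aph1c*, with every GC box (GGGCGG or its reverse CCGCCC) and CCAAT box (CCAAT or its reverse ATTGG) in capitals.
Aph1b: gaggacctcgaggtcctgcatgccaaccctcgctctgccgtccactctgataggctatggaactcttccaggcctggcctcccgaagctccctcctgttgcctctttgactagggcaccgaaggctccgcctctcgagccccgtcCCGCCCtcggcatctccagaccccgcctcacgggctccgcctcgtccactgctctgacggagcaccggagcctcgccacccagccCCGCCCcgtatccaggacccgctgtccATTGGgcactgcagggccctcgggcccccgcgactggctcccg
Aph1c: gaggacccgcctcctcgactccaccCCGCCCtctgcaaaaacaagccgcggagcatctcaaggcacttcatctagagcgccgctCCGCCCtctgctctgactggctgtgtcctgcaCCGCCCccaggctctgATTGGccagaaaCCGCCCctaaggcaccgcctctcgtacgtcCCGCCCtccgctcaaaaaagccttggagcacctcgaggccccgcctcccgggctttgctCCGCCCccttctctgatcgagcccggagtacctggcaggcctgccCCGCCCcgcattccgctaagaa

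The *Aph1c* window held 7 GC boxes and the *Aph1b* window 2, and each held 1 CCAAT box, with no overlap between the motifs. Searched on both strands, 35.7% of the 32851 RefSeq windows held a GC box and 37.4% a CCAAT box. Neither window held the TATA box letters (TATAAA), found in 13.6% of windows, or the RBPJ letters (TGGGAA), found in 25.6%. Both windows had 24 CpG dinucleotides, and 81.6% of all windows had that number or fewer. A match in these letters is a description and not a binding site.

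The values are normalized counts, made by the authors by dividing each mouse's read counts by a size factor, and their sums lay between 27310523 and 28423042 in the 20 mice. Read depth is not given with the values. The spacing of low values was clear in 13 mice and gave approximate totals of 28400000 to 35100000 reads in 5 P21 mice and 23500000 to 24300000 in 8 P70 mice. *Katnal2*, the targeted gene, was at 78.1 to 96.0 normalized counts in P21 KO mice and 99.3 to 115.4 in P21 WT mice, without overlap, and at 95.1 to 125.5 in P70 KO and 101.3 to 141.5 in P70 WT mice, with overlap. Its gene total counts reads from all exons, so it does not measure the deleted exon. The replicate 5 mice of P70 KO and P70 WT stood apart from their groups. The SD over genes of their log2 deviation from the mean of the other mice of their group was 0.664 and 0.548, against 0.378 to 0.412 in the other 8 P70 mice. The P70 comparisons of the members are given with and without them.

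Per kilobase of exon, *Psenen* had the highest mean of the 6 genes in all 4 groups and *Aph1c* the lowest. *Psenen* had group means of 581.2 to 629.2 normalized counts per kb. *Ncstn* (436.0 to 494.5) and *Aph1a* (408.9 to 543.3) came next, and their ranges over mice overlapped in each group. The range of *Psenen* over mice overlapped that of *Aph1a* in all 4 groups and that of *Ncstn* only in P70 WT mice. *Aph1b* followed at 185.3 to 191.7 and *Psen2* at 109.5 to 128.1 per kb, and these overlapped only in P70 KO mice. *Aph1c* had means of 40.9 to 59.0 per kb, below *Psen2* in every mouse of every group. The 3 Aph-1 genes were thus ordered *Aph1a*, *Aph1b*, *Aph1c* in level per length, without overlap between them in any group.

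**Figure D1:**
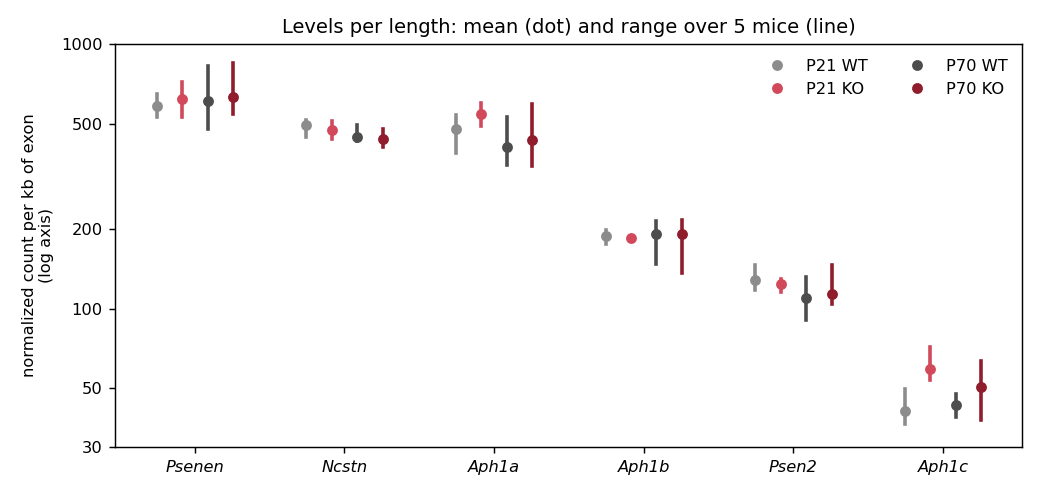
Level of each gamma-secretase gene in normalized counts per kb of exon (log axis) in the 4 groups, as the mean of 5 mice (dot) and the range from the lowest to the highest mouse (line). Psenen had the highest means (581.2 to 629.2) and Aph1c the lowest (40.9 to 59.0).

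*Aph1c*, the rodent scaffold gene, showed the pattern for which the genes were chosen. At P21 it was at 292.1, 278.4, 371.3, 296.3 and 297.3 normalized counts in KO mice 1 to 5 and at 257.7, 212.7, 202.4, 189.8 and 201.1 in WT mice 1 to 5. The lowest KO mouse was therefore just above the highest WT mouse (278.4 against 257.7), and KO mouse 3 was far above the other KO mice. The log2 fold change was 0.53 (SE 0.10), and it stayed between 0.46 and 0.60 when any of the 10 mice was left out. Across the genome, 45 of 17610 genes (0.256%) were higher in all P21 KO mice than in all WT mice. Because this contrast chose the gene, nothing is read from that share.

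At P70 *Aph1c* was at 260.3, 329.0, 316.7, 211.2 and 196.6 in KO mice and at 225.3, 227.2, 247.7, 224.4 and 202.1 in WT mice. Here the groups overlapped, with 3 KO mice above every WT mouse and 1 KO mouse, replicate 5, below every WT mouse. The log2 fold change was 0.19 (SE 0.15, 95% confidence interval -0.13 to 0.52), and neither the limma fit over all genes (adjusted p = 1.0) nor an exact two-sided permutation test of the 10 mice (p = 0.27) separated the groups. No test of the difference between ages was made, because the P21 values chose the gene. Without both replicate 5 mice the log2 fold change was 0.25 (SE 0.13, adjusted p = 1.0 by limma). In WT mice *Aph1c* differed by 0.09 (SE 0.10) on the log2 scale between P70 and P21, and in KO mice by -0.25 (SE 0.15). These age differences use the P21 values and are given without a test.

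*Aph1b*, the neighbouring scaffold gene, did not share the P21 pattern of *Aph1c*. It was at 945.2, 963.4, 933.0, 971.2 and 969.9 normalized counts in P21 KO mice and at 902.0, 995.0, 916.4, 1006.6 and 1022.2 in P21 WT mice. All 5 KO mice lay inside the range of the WT mice, and the log2 fold change was -0.02 (SE 0.05). At P70 it was at 1118.7, 1107.7, 973.0, 1022.0 and 700.7 in KO mice and 1063.4, 1104.7, 955.5, 1064.8 and 759.3 in WT mice. The lowest value in both P70 groups was that of replicate 5, and the log2 fold change was -0.01 (SE 0.14, 95% confidence interval -0.33 to 0.30).

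*Aph1a*, the most abundant of the scaffold genes, had P21 values of 1788.7, 2055.7, 1953.0, 1687.5 and 1887.1 in KO mice and 1696.7, 1336.4, 1704.3, 1659.4 and 1853.6 in WT mice, with a log2 fold change of 0.19 (SE 0.08). The groups overlapped, and 4 of 5 KO mice were above the WT median. At P70 its values were 1587.6, 1263.8, 1405.8, 1197.3 and 2047.0 in KO mice and 1308.7, 1202.4, 1353.6, 1359.9 and 1828.8 in WT mice. In each P70 group replicate 5 was the highest, and the log2 fold change between genotypes was 0.08 (SE 0.15, 95% confidence interval -0.26 to 0.41).

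The catalytic and accessory genes overlapped between KO and WT mice at both ages. *Psen2* lay between 502.7 and 561.6 in P21 KO mice (median 528.8) and between 510.9 and 634.1 in P21 WT mice, whose median was 550.6. In P70 brains it stood at 455.2, 458.6, 449.5, 473.0 and 630.1 in KO mice and 424.5, 463.0, 568.8, 391.4 and 523.2 in WT mice, with KO replicate 5 the highest of the 10. *Ncstn* lay between 1731.9 and 2033.1 in P21 KO, 1768.9 and 2053.1 in P21 WT, 1619.3 and 1898.3 in P70 KO and 1704.3 and 1962.9 in P70 WT mice. It had the smallest spread of the 6 genes relative to its level at P70. *Psenen* lay between 676.4 and 912.8 in P21 KO and 676.4 and 825.2 in P21 WT mice, and at P70 the replicate 5 mice (1084.5 in KO, 1049.9 in WT) were above every other mouse (610.6 to 819.3). In the P21 contrast the log2 fold changes were -0.05 (SE 0.07) for *Psen2*, -0.06 (SE 0.06) for *Ncstn* and 0.09 (SE 0.09) for *Psenen*.

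**Figure D2:**
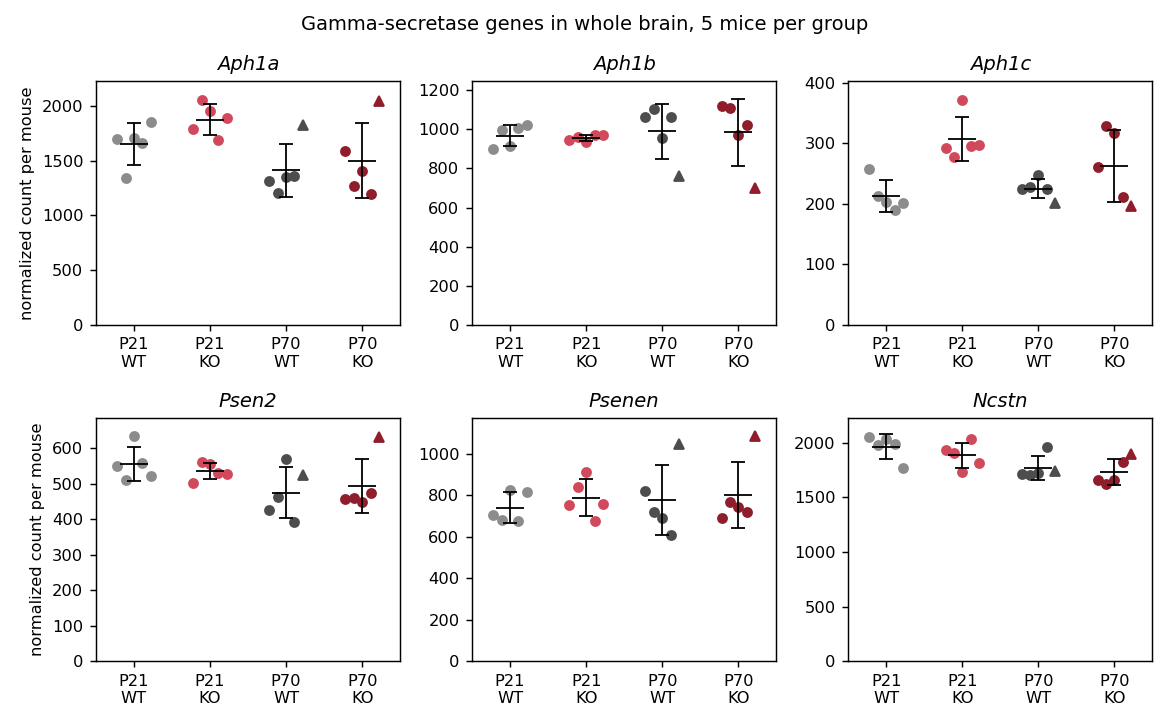
Normalized count of each gamma-secretase gene in every mouse, by group, with the mean and SD of 5 mice. Triangles mark the replicate 5 mice of P70, and in Aph1c the P21 KO mice (278.4 to 371.3) all lie above the P21 WT mice (189.8 to 257.7).

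Between KO and WT mice at P70, none of the 6 genes passed the test. The limma fit called 0 of 17613 genes at an adjusted p under 0.05 (0.0%) and 199 at an unadjusted p under 0.05 (1.13%), and 0 of the 6 members were among either. No member separated the P70 groups without overlap, as 0.193% of genes did in either direction. *Psen2* (0.06, SE 0.13), *Psenen* (0.05, SE 0.16) and *Ncstn* (-0.03, SE 0.07) had log2 fold changes within their errors. Their 95% confidence intervals ran from -0.22 to 0.34, from -0.30 to 0.39 and from -0.19 to 0.13. Without both replicate 5 mice most intervals were narrower. *Aph1a* then had 0.06 (-0.13 to 0.24), *Aph1b* 0.01 (-0.13 to 0.16), *Psen2* 0.01 (-0.22 to 0.23), *Psenen* 0.05 (-0.14 to 0.23) and *Ncstn* -0.07 (-0.20 to 0.06), each with adjusted p = 1.0 by limma. Exact two-sided permutation tests over the 10 mice gave p = 0.675 for *Aph1a*, 0.873 for *Aph1b*, 0.69 for *Psen2*, 0.762 for *Psenen* and 0.619 for *Ncstn*. At P21 the fit likewise called 0 of 17610 genes after adjustment (0.0%) and 429 before it (2.44%), a contrast that is only described for the members.

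With all mice, no member passed the test between P70 and P21 either, at a background of 9.32% of genes called in WT mice (1643 of 17630) and 8.32% in KO mice (1467 of 17641). *Ncstn* was lower at P70 by a log2 fold change of -0.15 in WT mice (SE 0.07, limma adjusted p = 0.184) and -0.12 in KO mice (SE 0.07, adjusted p = 0.335), and every P70 mouse was below the P21 median of its genotype. *Psen2* had -0.24 in WT (SE 0.11, adjusted p = 0.195) and -0.13 in KO mice (SE 0.10, adjusted p = 0.49). *Aph1a* had -0.23 in WT (SE 0.11, adjusted p = 0.225) and -0.34 in KO mice (SE 0.13, adjusted p = 0.128). *Aph1b* (0.02 in both genotypes) and *Psenen* (0.05 and 0.01) were near 0. At an unadjusted p under 0.05, *Ncstn* and *Psen2* in WT mice and *Aph1a* in KO mice were among the genes called, where 24.5% of genes were called in WT and 22.7% in KO mice. None of these 5 genes separated P70 from P21 without overlap, as 10.8% of genes did in WT and 10.9% in KO mice.

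**Figure D3:**
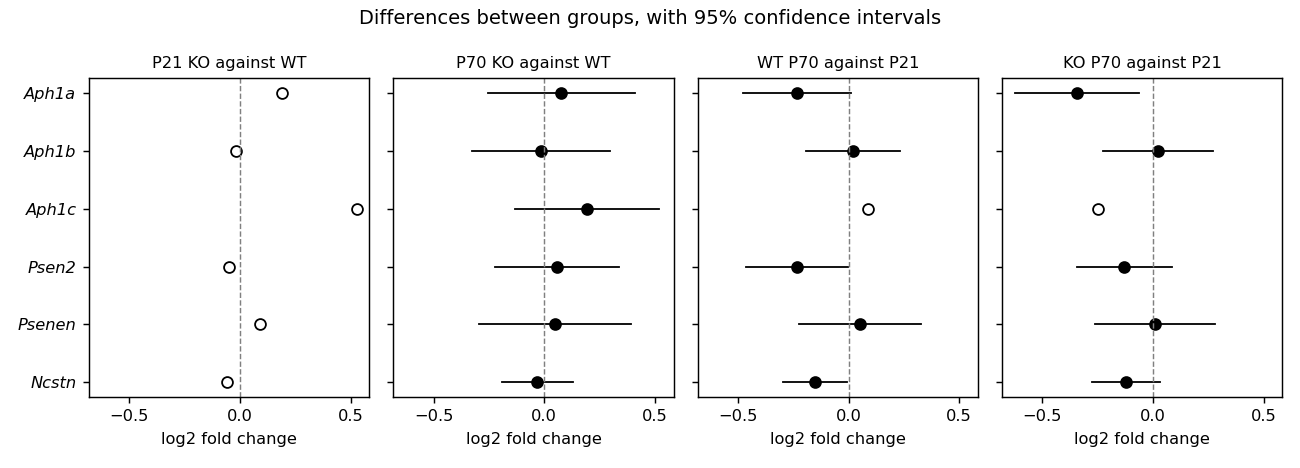
Log2 fold change (on normalized counts plus 1) of each gamma-secretase gene in 4 comparisons of 5 mice against 5. Lines are 95% confidence intervals, and open points without a line rest on the values that chose the genes. Aph1c at P21 (0.53) is the point farthest from 0.

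Leaving out replicate 5 of P70 brought *Aph1a* past the threshold in both genotypes and *Psen2* in KO mice. Without P70 WT replicate 5, *Aph1a* fell with age in WT mice by 0.33 on the log2 scale (SE 0.08, limma adjusted p = 0.0176), in a fit that called 17.0% of all genes, and *Psen2* had -0.27 (SE 0.10, adjusted p = 0.0915). Without P70 KO replicate 5, *Aph1a* fell in KO mice by 0.46 (SE 0.08, adjusted p = 0.0018) and *Psen2* by 0.22 (SE 0.06, adjusted p = 0.0188), in a fit that called 21.3% of genes. Over all alternatives the adjusted p ran from 0.0176 to 0.404 for *Aph1a* in WT, from 0.0018 to 0.259 for *Aph1a* in KO and from 0.0188 to 0.663 for *Psen2* in KO mice. In the same fits *Ncstn* had -0.15 (adjusted p = 0.123) in WT and -0.16 (adjusted p = 0.071) in KO mice. *Aph1b* had 0.11 (adjusted p = 0.249) and 0.14 (adjusted p = 0.0888). The direction of *Psenen* turned in both genotypes, to -0.06 in WT and -0.10 in KO mice, short of the threshold.

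**Figure D4:**
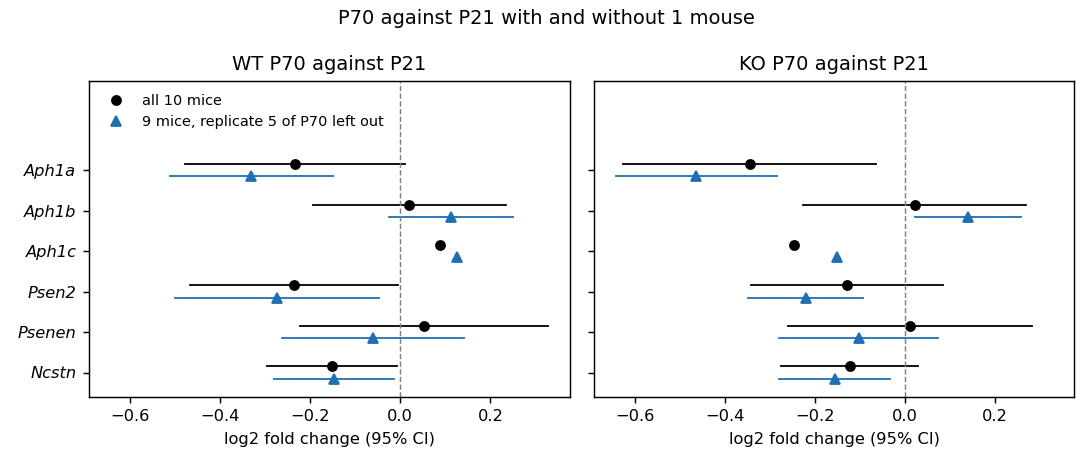
Log2 fold change between P70 and P21 in WT (left) and KO mice (right), with 95% confidence intervals, for all 10 mice (circles) and without the replicate 5 mouse of P70 (triangles). Aph1c has points only. Leaving out that mouse moves Aph1a from -0.23 to -0.33 in WT and from -0.34 to -0.46 in KO mice.

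The replicate 5 mice deviated alike in most members. Against the mean of the other 4 mice of their group, on the log2 scale, *Psenen* was 0.57 higher in both the KO and the WT mouse and *Aph1a* was 0.59 and 0.49 higher. *Aph1b* differed by -0.59 and -0.46 and *Aph1c* by -0.48 and -0.19. Across 12794 genes, which are not independent replicates, the deviation of a mouse from its group had a Spearman correlation with exon length of -0.474 in the KO and -0.481 in the WT replicate 5 mouse. Replicate 3 at P21 was alike in this (-0.509 in KO and -0.559 in WT), and the other 16 mice ranged from -0.21 to 0.468. *Psenen* has the shortest exon total of the members (1275 bases), and *Aph1b* (5163) and *Aph1c* (5205) the longest. The part of this in the member values was not tested. P21 KO replicate 3, with a correlation of the same sign, had the highest *Aph1c* value, whereas *Aph1c* was low in the P70 replicate 5 mice. Without that P21 mouse the P21 values of KO mice ran from 278.4 to 297.3.

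*Aph1c* had its highest mean share of the *Aph1b* and *Aph1c* total in P21 KO mice, whose range overlapped that of P70 KO mice. Its share was 24.3% ± 2.4 (SD, n = 5) in P21 KO mice (23.6, 22.4, 28.5, 23.4 and 23.5%) and 18.1% ± 2.5 (SD, n = 5) in P21 WT mice (22.2, 17.6, 18.1, 15.9 and 16.4%). The lowest KO share and the highest WT share were 22.4% and 22.2%, and this is a description, since the P21 values chose the gene. The total was 1237.4 to 1304.3 in P21 KO and 1118.8 to 1223.3 in P21 WT mice, also without overlap, and its log2 fold change was 0.10 (SE 0.04). It contains the same *Aph1c* values, so nothing is read from this either. Of all genes, 0.256% were higher in all P21 KO mice than in all P21 WT mice. At P70 the share was 18.9, 22.9, 24.6, 17.1 and 21.9% in KO mice and 17.5, 17.1, 20.6, 17.4 and 21.0% in WT mice. The P70 difference of 2.36 percentage points was within the spread of the mice (exact two-sided permutation test, p = 0.175, where the smallest p this test allows is 0.00794). Without both replicate 5 mice it was 2.73 points (exact permutation p = 0.229). The P70 total differed by 0.03 on the log2 scale (SE 0.13), and replicate 5 had the lowest total in both groups (897.3 in KO, 961.4 in WT).

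**Figure D5:**
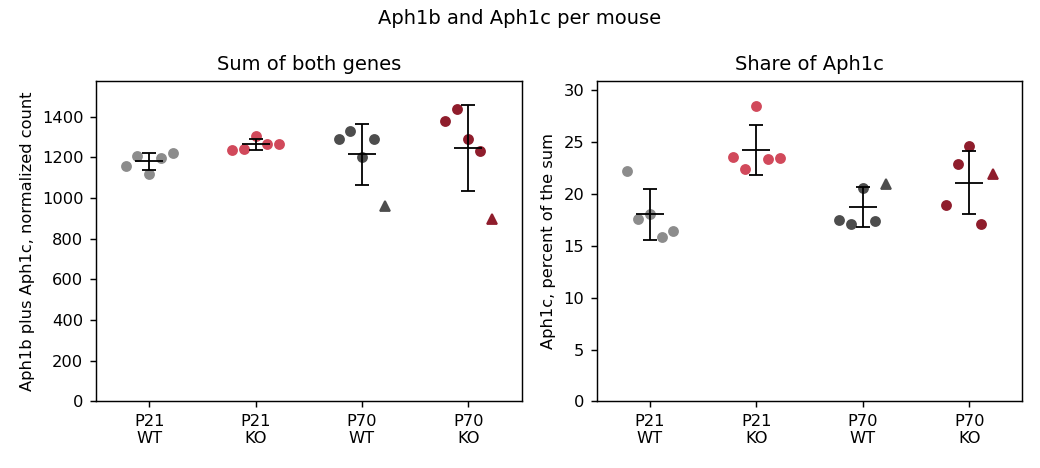
Sum of Aph1b and Aph1c in normalized counts (left) and the percent of that sum from Aph1c (right) in every mouse, with the mean and SD of 5 mice. Triangles mark the replicate 5 mice of P70. The share is 22.4 to 28.5% in P21 KO mice and 15.9 to 22.2% in P21 WT mice.

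No pair of members passed the test of varying together from mouse to mouse when all pairs were adjusted together. Over 20 mice, with group means removed, none of the 15 pairs of members passed 0.05 after Benjamini-Hochberg adjustment. The pairs with *Aph1c* count in that adjustment, and an adjustment over the other pairs alone was not made. *Aph1a* with *Psenen* had the smallest permutation p (r = 0.735, p = 0.00431, adjusted p = 0.0613). Its r was 0.294 without both replicate 5 mice (permutation p = 0.241). The r farthest from 0 was that of *Aph1b* with *Psenen* (Pearson r = -0.753, permutation p = 0.0142, adjusted p = 0.0613, Spearman rho = -0.481, permutation p = 0.0551, adjusted p = 0.173). It was -0.319 without the 2 mice farthest from the median of *Aph1b*, and -0.101 (permutation p = 0.699) without both replicate 5 mice. *Aph1b* with *Psen2* was alike in size (r = -0.749, permutation p = 0.0146, adjusted p = 0.0613, rho = -0.717, permutation p = 0.00538, adjusted p = 0.0807). It was -0.568 without the 2 farthest mice and -0.522 (permutation p = 0.0772, adjusted p = 0.579) without both replicate 5 mice. *Aph1a* with *Aph1b* had r = -0.738 (permutation p = 0.0163, adjusted p = 0.0613), and -0.0603 without both replicate 5 mice (permutation p = 0.84). *Psenen* with *Ncstn* went from -0.161 over all mice to -0.663 without both replicate 5 mice (permutation p = 0.00948, adjusted p = 0.142). For *Aph1b* and *Aph1c* r was 0.386 and rho 0.212, with r = -0.105 without the 2 farthest mice and -0.308 without both replicate 5 mice. Within ages r was -0.619 at P21 and 0.58 at P70 (adjusted permutation p = 0.177 at P70). *Aph1c* was chosen on its P21 values. Its correlations that include P21 mice are therefore descriptions, and nothing is read from their tests or signs.

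Among 12793 genes with a mean of at least 100, those whose log2 values followed *Aph1c* most closely over the 20 mice included *Enpp2* (Pearson r = 0.647), *Mta3* (0.632), *Zfp870* (0.628) and *Dnajc24* (0.611). *Enpp2* encodes autotaxin, a secreted enzyme made in the choroid plexus and by oligodendrocytes, and its group means were 14150 in P21 KO, 12330 in P21 WT, 11920 in P70 KO and 10950 in P70 WT mice. *Aph1b* had an r of 0.221 with *Aph1c* in this ranking, and *Ncstn* -0.314. With group means removed, *Pvt1* (0.798), *Trnt1* (0.747) and *Mapre1* (0.747) came first. *Mapre1* encodes EB1, which binds the growing ends of microtubules. These likenesses were picked as the highest of all genes and are descriptions. The ranking with group means kept also contains the P21 difference between genotypes that chose *Aph1c*.

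The other genes around *Aph1b* and *Aph1c* were read for the same 4 groups. Of 12 other annotated gene bodies within 200 kb, 7 were in the table and 6 passed the filter in the 4 fits. Between KO and WT mice none of these 6 passed the test at either age, where 0.0% of all genes passed. The P21 log2 fold changes ran from -0.07 (SE 0.04) for *Tpm1*, a tropomyosin gene, to 0.10 (SE 0.08) for *Car12*. *Car12*, a carbonic anhydrase gene on the plus strand beside *Aph1b* (chr9:66713686-66766845), rose with age in both genotypes. It rose by 0.68 on the log2 scale in WT mice (SE 0.08, limma adjusted p = 0.000308) and by 0.71 in KO mice (SE 0.10, adjusted p = 0.000976), from 327.5 to 526.2 and from 351.4 to 578.3 normalized counts. *Rab8b*, *Rps27l*, *Lactb*, *Tpm1* and *Usp3* passed in neither age comparison, where 9.32% of all genes were called in WT and 8.32% in KO mice. *Rab8b*, the vesicle-transport GTPase gene nearest to *Aph1c*, had -0.04 (SE 0.17) between genotypes at P70 and 0.02 (SE 0.05) at P21.

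Genes that work with the complex were read from 6 lists. None of their genes passed the test between KO and WT mice at P70 or P21, where 0.0% of all genes passed. With age, 1 of the 10 genes for assembly and modulation rose in each genotype and none fell, a share near that of all genes called in the same fits (9.32% in WT and 8.32% in KO mice). This was *Gpr3*, an orphan receptor known to raise gamma-secretase activity, by 0.43 in WT (SE 0.12, limma adjusted p = 0.0447) and 0.42 in KO mice (SE 0.08, adjusted p = 0.00914). *Arrb1*, which encodes beta-arrestin 1, had 0.20 (adjusted p = 0.0506) and 0.18 (adjusted p = 0.0692). *Bsg* (-0.17 and -0.05) and the retention factor gene *Rer1* (-0.16 and -0.08) did not pass. *Ifitm3*, whose product binds the complex, had the smallest p of this list at P70 between genotypes (0.20, SE 0.16).

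Of the 26 sheddases and their partners, 2 rose and 7 fell with age in WT mice and 2 rose and 5 fell in KO mice, where 9.32% and 8.32% of all genes were called in either direction. The list median was -0.05 in WT and -0.07 in KO mice, beside 0.00 and -0.01 over all genes. *Rhbdf2*, an iRhom that guides the sheddase ADAM17, fell by 1.36 in WT (adjusted p = 0.00304) and 0.95 in KO mice (adjusted p = 0.0247). *Bace2*, an aspartyl sheddase gene, fell by 1.17 in WT mice (adjusted p = 0.00203) and had -0.79 in KO mice (adjusted p = 0.0563). *Tspan5*, a tetraspanin that guides ADAM10, rose by 0.18 and 0.22 (adjusted p = 0.0407 and 0.038 by limma). *Timp3*, an inhibitor of sheddases, rose by 0.31 in WT mice (adjusted p = 0.0251) and had 0.08 in KO mice. *Pcsk7*, a proprotein convertase gene, had -0.16 (SE 0.09) between genotypes at P70.

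Of 49 substrates of the complex, 4 rose and 1 fell in WT mice and 3 rose and 2 fell in KO mice with age, with list medians of 0.01 and -0.03. Those 5 of 49 are near the 9.32% and 8.32% of all genes called. *Nectin1*, an adhesion molecule gene, rose by 0.59 in WT and 0.58 in KO mice (limma adjusted p = 0.000712 and 0.00212). *Scn4b*, a sodium channel beta subunit gene, rose by 0.36 in WT mice (adjusted p = 0.0109) and had 0.15 in KO mice (adjusted p = 0.343). *Vldlr* had -0.27 and -0.25, and *Igf1r* 0.31 and 0.15, none past the threshold. At P70 *Igf1r* (-0.17, SE 0.10) and *Notch1* (-0.16, SE 0.10) had the smallest p between genotypes.

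Of 34 core genes of the Notch pathway, 4 rose and 2 fell in WT mice and 3 rose and none fell in KO mice, beside 9.32% and 8.32% of all genes called. *Crebbp*, a coactivator gene, rose by 0.47 and 0.43 (limma adjusted p = 0.00277 and 0.00466) and *Neurl1a*, a ubiquitin ligase gene, by 0.38 and 0.32 (adjusted p = 0.00821 and 0.00731). The ligand genes *Dll4* and *Dll3* fell in WT mice, by 0.87 and 0.62 (adjusted p = 0.0151 and 0.0435), and had -0.48 and -0.31 in KO mice (adjusted p = 0.0836 and 0.421). The difference between genotypes in these age changes was not tested. *Maml3*, another coactivator gene, had -0.21 (SE 0.12) between genotypes at P70. Of 15 Notch target genes, 1 rose and 2 fell in WT mice and 2 rose and 2 fell in KO mice, beside the same background. *Fabp7*, a fatty acid binding protein of radial glia and astrocytes, fell by 1.11 and 0.87 (adjusted p = 0.00283 and 0.00342), and *Nrarp*, a feedback inhibitor of Notch, by 0.57 and 0.33 (adjusted p = 0.0158 and 0.0375). *Ccnd1*, which encodes cyclin D1, rose by 0.42 and 0.46 (adjusted p = 0.0372 and 0.00891). *Sox9* had 0.44 in WT mice (adjusted p = 0.0654) and rose by 0.59 in KO mice (adjusted p = 0.0144). *Cdkn1a* had -0.50 (SE 0.29) between genotypes at P70.

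Of the 11 other intramembrane protease genes, 9 were tested, and 1 fell with age in WT mice and none in KO mice, beside 9.32% and 8.32% of all genes called. This was *Rhbdl1*, a rhomboid protease gene, with -0.39 in WT (SE 0.10, limma adjusted p = 0.0279) and -0.29 in KO mice (SE 0.12, adjusted p = 0.155). None of the 9 had a value above 0 in WT mice, and the list median was -0.17 there and -0.08 in KO mice. *Sppl2b* had -0.17 and -0.16, and at P70 between genotypes *Parl* had 0.11 (SE 0.11) and *Rhbdl2* -0.26 (SE 0.35).

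Cell type composition was read beside these values from 12 marker lists. Between KO and WT mice the summed levels of all 12 lists overlapped at both ages, and no list member in the table was at 0 in every mouse. At P21 the 10 choroid plexus markers summed to 14503 to 27114 in KO and 12698 to 18673 in WT mice, with 9 of the 10 above 0 in log2 fold change (median 0.24), and the 10 ependymal markers to 899 to 1216 and 801 to 946 (median 0.18, 10 of 10 above 0). The 10 oligodendrocyte markers summed to 390171 to 572239 in P21 KO and 391008 to 439855 in P21 WT mice (median 0.10, 9 of 10 above 0). The 8 blood markers went the other way, with 7 in the table and 6 tested, none of them above 0 in log2 fold change (median -0.75), and sums of 12083 to 30959 in P21 KO and 24503 to 61283 in P21 WT mice. At P70 the choroid plexus markers were again above 0 in 10 of 10 (median 0.19), with sums of 15632 to 27538 in KO and 12787 to 27582 in WT mice. Over all genes tested, the median log2 fold change between genotypes was 0.004 at P21 and -0.005 at P70. The part of these lists in the *Aph1c* values was not tested. With age, 8 of 10 oligodendrocyte markers fell in WT and 9 of 10 in KO mice, beside 9.32% and 8.32% of all genes called. Their sums were 150810 to 198417 in P70 KO and 167150 to 190211 in P70 WT mice. The neuronal lists were detected throughout, with excitatory markers summing to between 109353 and 126304 in the 20 mice.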

How the data were processed

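Poly-A RNA from 20 whole brains was sequenced from TruSeq libraries. The authors quantified transcripts against GRCm38 with Salmon 1.1.0, corrected for GC bias, summed them to genes through tximport and scaled the gene counts with DESeq2 (1.26.0 in the submitters' processing notes). The deposited signal is this normalized count per gene, in a single table, and contains estimated shares of reads common to several genes. Whole reads could not be recovered, so no count test was run. Values were tested as log2(value + 1) with limma 3.58.1 in R 4.3.3 (lmFit, eBayes with trend), over genes whose mean reached 10 in the mice compared, separately in each comparison, with Benjamini-Hochberg adjustment over all genes and a threshold of 0.05. The fit was tested on simulated data. Single values used exact permutation, and correlations 100000 permutations (SciPy 1.17.1). Alignments used Biopython 1.88. Of the IDs, 19447 matched a symbol in GENCODE M21. The members and lists were chosen with earlier results of these data known. The named genes were the members, *Katnal2*, genes within 200 kb of *Aph1b* and *Aph1c* that passed the filter, the genes most like *Aph1c*, and, per list, the 2 higher and 2 lower genes of smallest p with age in WT mice and the 2 of smallest p at P70. Of these, 2 genes are not reported here. Mice are separate animals, as far as the labels say. Alternatives were a pseudocount of 5, no filter, a mean of at least 50, no trend, other scalings, a joint fit, a block, *Aph1b* and *Aph1c* summed, and each mouse left out.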

Additional observations from a re-analysis of the deposited data

Results flagged for a closer look

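A mouse stood far from the other 4 of its group in 7 of 28 groups of values examined (6 genes and the *Aph1c* share in 4 groups), by Dixon's criterion, which chance meets in about 5% of groups. In 3 of them the mouse was a replicate 5 of P70: *Aph1a* in P70 WT (1828.8 normalized counts), *Psen2* in P70 KO (630.1) and *Psenen* in P70 KO (1084.5). P21 KO replicate 3 was highest in *Aph1c* (371.3 normalized counts) and in the *Aph1c* share (28.5%), which rests on the same value. *Ncstn* was lowest in P21 WT replicate 5 (1768.9 normalized counts) and highest in P70 WT replicate 4 (1962.9).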

How the results depend on the processing

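Of 149 alternative values of the main results, 137 kept their direction and side of the threshold or, for counts, stayed within 1.5 times. Leaving out 1 mouse gave 912 to 3000 genes past the threshold with age in WT mice (fewest without P21 WT replicate 4, most without P70 WT replicate 5) and 896 to 3759 in KO mice. In KO mice the count was 943, 957 and 896 without P21 replicate 1, 2 or 4, and 3759 without P70 replicate 5. Members past the threshold then ranged from 0 to 1 in WT and 0 to 2 in KO mice. At P21 it gave 0 to 1 genes, *Lenep* without KO replicate 4 and *Spats2l* without WT replicate 3. Without both P70 replicate 5 mice, an alternative added after seeing the data, 1 gene (*Gm28438*) passed at P70. These 3 genes were named after their values were seen. The cause was not tested. With the replicate number as a block, 913 genes passed with age in KO mice, and the block changed no member's call, while the standard error of *Psenen* at P70 went from 0.16 to 0.07. The *Aph1c* share at P70 kept its 2.36 points, with p = 0.125 by exact sign flips of same-numbered pairs, and ran from 1.49 to 3.35 points without 1 mouse (exact permutation p from 0.0635 to 0.349). Same-numbered mice are different animals, and not every pair deviated together. Between KO and WT the correlations of their deviations were 0.0749 to 0.175 for replicates 1 to 4 and 0.705 for replicate 5 at P70, and -0.00913 to 0.26 at P21, and between ages they were -0.119 to 0.16. Of 10 mice, 7 at P70 and 5 at P21 correlated best with the mouse of their own number in the other genotype, out of 5 mice there. Between ages, 4 of 10 WT and 2 of 10 KO mice did so with their own number. Whether these counts exceed chance was not tested. The numbers were not taken as pairs. At P70 the log2 fold change of *Aph1c* was above 0 in 19 of 19 alternatives (0.11 to 0.29, adjusted p from 0.928 to 1.0 by limma). Those of *Aph1a* and *Ncstn* kept their sign in 18, of *Psen2* and *Psenen* in 17 and of *Aph1b* in 14 of 19. With 5 mice per group, the interval of each difference sets what could be seen.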

Other observations

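Over all 3 Aph-1 genes, *Aph1c* made up 8.44 to 11.4% of the normalized counts in P21 KO mice and 6.54 to 9.02% in P21 WT mice. At P70 it made up 6.68 to 12.2% in KO and 7.24 to 9.69% in WT mice, with replicate 5 lowest in both groups. The 10 oligodendrocyte precursor markers summed to less in every P70 than in every P21 mouse of either genotype. In each genotype 9 of 10 were lower past the threshold of the limma test, beside 9.32% of all genes called in WT and 8.32% in KO mice. The blood markers summed to 6986 to 9959 in P70 WT and 7299 to 13113 in P70 KO mice.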
